A study of Mus musculus with 16 samples.

Results

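The interleukin 1 (IL-1) family comprises inflammatory cytokines together with the antagonists, receptors and enzyme that govern their activity. The set was chosen by name as 10 genes, the cytokine genes Il1a, Il1b, Il1rn, Il18, Il33 and Il36g, the receptor genes Il1r1 and Il1rl1, the gene of the IL-18 binding protein, Il18bp, and the gene of the processing protease, Casp1. Of these, 9 were found among the 5171 distinct genes of the 4 deposited tables, 8 under the symbol asked for and 1, Il36g, under its older symbol Il1f9. Il1r1 was in none of the tables and was not analysed here. The tables hold only genes that passed the authors' test in at least 1 comparison, so the 9 genes described here had to differ somewhere.

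RNA was sequenced from whole colon of male C57BL/6 mice whose microbiota had been enriched by transferred bedding from 2 weeks before colitis. Wild type mice (WT) were compared with mice in which Cre, driven by the villin promoter, deleted floxed exons of Smarcad1, a chromatin remodelling factor (Smarcad1-KO, here KO). Each genotype was studied without treatment (WT control, n = 3; KO control, n = 3) and after 15 days of 1% dextran sodium sulphate in the drinking water, which injures the colonic epithelium, (WT colitis, n = 5; KO colitis, n = 5). The villin promoter acts in intestinal epithelium, so the other cells of the KO colon keep the gene, and the KO mice came from a single targeted line. The sample labels give colon as the tissue, whereas the description of the series gives small intestine. The ages of the mice are not given in the sources used here.

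All values are the authors' group means on the log2 scale as RPM, that is reads scaled to an equal library total, not corrected for gene length. The deposited tables hold no values of single libraries, so no spread between mice is given and no difference below was tested. The errors given after ± are counting errors of a difference (1 standard error) and cover neither the spread between mice nor the steps before counting. The steps between low means gave geometric mean library sizes of 10.1 M reads for the WT and 9.77 M for the KO control libraries, and 8.0 M for the WT and 9.87 M for the KO libraries of colitis. At these depths 3 reads per library, the lowest level read as signal, correspond to −1.75, −1.70, −1.42 and −1.72 log2 RPM. Smarcad1 itself stood at 5.77 log2 RPM in WT control and 5.68 in WT colitis, against 4.59 in KO control and 4.55 in KO colitis, so both KO groups lay below both WT groups.

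IL-1 alpha and IL-1 beta signal through the same receptor to the adaptor MYD88 and to nuclear factor kappa B, which switches on chemokines, adhesion molecules and further cytokines. Their receptor antagonist, encoded by Il1rn, occupies the receptor without signalling, while IL-18 and IL-33 have receptors of their own, and IL-18 binding protein neutralises IL-18. IL-1 beta and IL-18 are made as inactive precursors that caspase-1 cuts within inflammasomes, so transcript levels do not report how much active cytokine was released. In the colon, myeloid cells are known as the main source of IL-1 beta, whereas the epithelium makes IL-18 without a stimulus.

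Promoters are shown for the 3 cytokine genes in which the letters TATAAA lay at the position of a TATA box. Also shown are 3 genes without them there. Of these, Il1f9 was far higher in WT colitis than in WT control, whereas Il18 and Casp1 changed little. The sequences are the 100 bases before the annotated start, read 5′ to 3′ on the gene's strand from RefSeq on build GRCm38.p6, and capitals mark TATAAA. Il1b lies at chr2:129371140-129371239 on the minus strand, Il1a at chr2:129309973-129310072 on the minus strand, the second start of Il33 at chr19:29945690-29945789 on the plus strand, Il1f9 at chr2:24186376-24186475 on the plus strand, Il18 at chr9:50554600-50554699 on the plus strand and Casp1 at chr9:5298417-5298516 on the plus strand.
Il1b: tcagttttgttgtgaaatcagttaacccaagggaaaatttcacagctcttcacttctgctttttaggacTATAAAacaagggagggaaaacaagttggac
Il1a: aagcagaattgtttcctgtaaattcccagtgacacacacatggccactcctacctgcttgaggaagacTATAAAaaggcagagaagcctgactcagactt
Il33: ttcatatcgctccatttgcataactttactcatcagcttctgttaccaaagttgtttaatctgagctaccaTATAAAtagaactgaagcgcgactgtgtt
Il1f9: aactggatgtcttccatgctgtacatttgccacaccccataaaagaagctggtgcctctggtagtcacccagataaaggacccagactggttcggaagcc
Il18: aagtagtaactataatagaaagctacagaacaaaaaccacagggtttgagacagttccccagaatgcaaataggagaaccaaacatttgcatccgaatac
Casp1: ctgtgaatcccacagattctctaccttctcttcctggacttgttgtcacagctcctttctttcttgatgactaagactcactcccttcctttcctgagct
The letters began 31 bases before the start in Il1b, 32 bases in Il1a and 29 bases in Il33. RefSeq gave 13 start windows for the 9 genes, and TATAAA on the gene's strand from 25 to 35 bases before the start was in 3 of them. The same held for 576 of all 32851 windows (1.75%). This range of positions was chosen after the matches were seen. Il1f9, Il18bp and Il1rl1 had no TATAAA in that range although their colitis means were well above their control means in WT. Anywhere in 250 bases and on either strand, TATAAA was in 5 of the 13 windows and in 12.4% of all windows, and TTNNGNAA, the core letters bound by C/EBP factors, was in 9 of 13 and in 36.8% of all. The kappa B motif was found in none of the 13 windows and in 7.25% of all, TGANTCA, bound by AP-1, in 2 and 6.75%, and GAGGAA, bound by PU.1, in 3 and 23.3%. These are matches of letters only, and whether a factor binds there was not measured.

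All 9 genes had higher group means in colitis than in control in both genotypes. In WT, 6 of the 9 were in the deposited table of colitis against control, where 36.6% of all 5171 genes were listed as higher in colitis. In KO, 8 of the 9 were in the corresponding table, against 44.8% of all genes. Both tables held 5 of the 9, Il1a, Il1rn, Il33, Il1rl1 and Il18bp, against 2182 of all 5171 genes. Il1f9 was in the WT table only, as were 20.9% of all genes, and Il1b, Il18 and Casp1 were in the KO table only, as were 36.2% of all genes. No test of a difference between the genotypes stands behind this split. A log2 difference of at least 1 was met by 6 of 9 genes in WT, against 18.4% of all genes, and by 6 of 9 in KO, against 16.0%. These counts include Il1f9, whose KO difference was only 0.35 with control means raised to 3 reads per library. Of the genes with all 4 means above 3 reads, 5 met it in WT and 5 in KO. Over the 9 genes the median difference was 2.28 in WT and 1.56 in KO on the log2 scale, or 2.28 and 1.44 with means under 3 reads per library raised to 3 reads. Over all genes the medians were 0.13 in WT and 0.19 in KO, and small changes are also given below relative to these medians.

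**Figure D1:**
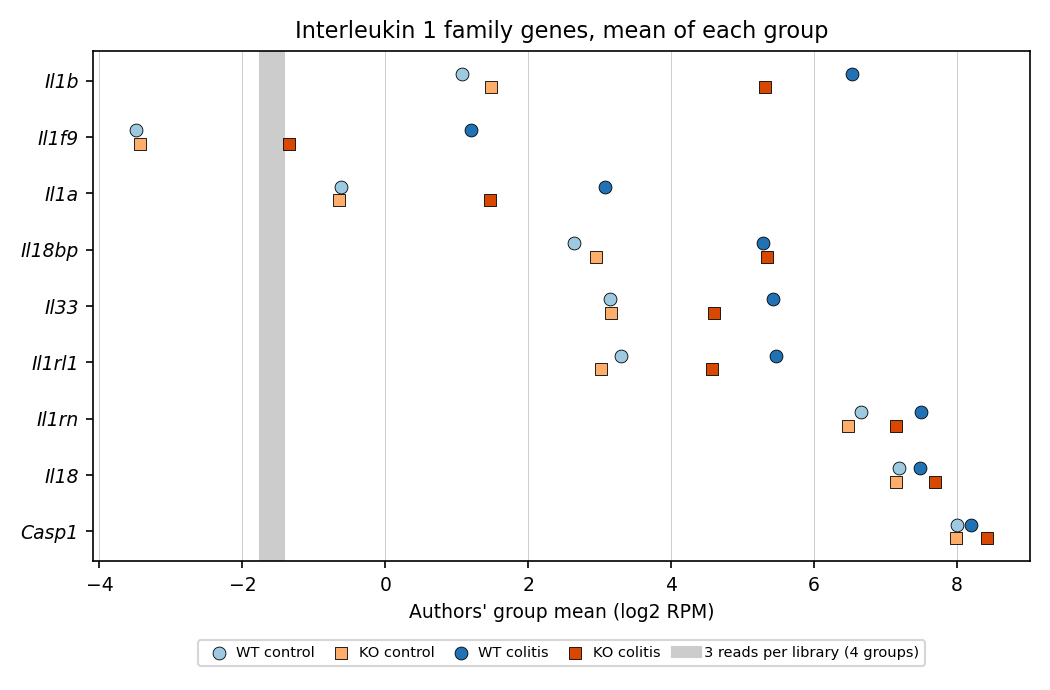
Authors' group mean (log2 RPM, horizontal axis) of the 9 genes in WT control (n = 3), KO control (n = 3), WT colitis (n = 5) and KO colitis (n = 5), with no error bars because the deposited tables hold group means only. The grey band spans 3 reads per library in the 4 groups, and both control means of Il1f9 lie left of it. Il1b ran from 1.07 in WT control to 6.53 in WT colitis, while Il18 and Casp1 stood above 7 in every group.

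Among the agonist cytokines, Il1b had the largest change of the genes whose control means were above 3 reads per library. Il1b (ENSMUSG00000027398, chr2:129364570-129371139, minus strand) encodes IL-1 beta. Its group mean was 1.07 log2 RPM in WT control, 1.48 in KO control, 6.53 in WT colitis and 5.31 in KO colitis, or 21.2, 27.2, 740 and 392 reads per library. The 2 control means were low and close to each other, whereas both colitis means were high and the KO mean was the lower of them. The change on colitis was 5.46 ± 0.18 in WT (44.0-fold) and 3.83 ± 0.16 in KO (14.3-fold). Ranked from the largest increase down, Il1b was 18th in WT and 38th in KO of all 5171 genes. In colitis KO lay 2.33-fold below WT (log2 difference −1.22 ± 0.04), while in control it lay above WT by 0.41 ± 0.24. The change in KO was thus smaller than in WT by 1.63 ± 0.24 on the log2 scale. Il1b was in neither table of KO against WT, and although its means lay further apart in WT it was the KO table of colitis against control that listed it.

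Il1a (chr2:129299610-129309972, minus strand) encodes IL-1 alpha, which needs no caspase-1 to be active and is released from damaged cells. It lies 54597 bases from Il1b. Its group mean was −0.62 in WT control, −0.65 in KO control, 3.08 in WT colitis and 1.46 in KO colitis, or 6.60, 6.24, 67.6 and 27.2 reads per library. The control means were the same within counting error, and the KO colitis mean lay 3.07-fold below the WT colitis mean (log2 difference −1.62 ± 0.15). The change was 3.69 ± 0.33 in WT (12.9-fold) and 2.11 ± 0.36 in KO (4.31-fold), and both changes were listed by the authors. Of the exon bases of Il1a, 11.2% overlap Gm14023 on the other strand. Strand-specific counting is not stated, so reads of both genes cannot be told apart there. The same holds for 1.31% of the exon bases of Il1b, which overlap Il1bos, and for 2.64% of those of Il18bp, which overlap Numa1.

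Il1f9 (chr2:24186476-24193568, plus strand) encodes IL-36 gamma, a cytokine of epithelial and myeloid cells with a receptor of its own. Both control means, −3.49 and −3.44, are those of 0 reads in every library, 3 WT and 3 KO. The colitis means were 1.20 in WT and −1.35 in KO, or 18.4 and 3.87 reads per library. Set against 3 reads per library in control, Il1f9 was at least 7.75-fold higher in the colitis mean of WT and at least 1.28-fold in that of KO. In colitis the KO mean lay 5.85-fold below the WT mean (log2 difference −2.55 ± 0.36), the 9th lowest of the KO to WT differences over all 5171 genes. The KO mean is close to the floor and its libraries were uneven. Exactly 1 of the 5 KO colitis libraries had 0 reads, and at least 1 had 11 or more.

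Il33 (chr19:29925114-29960718, plus strand) encodes IL-33, a nuclear cytokine set free by damaged epithelial and stromal cells. The means were 3.15 in WT control, 3.16 in KO control, 5.42 in WT colitis and 4.59 in KO colitis. The control means were equal within counting error and the WT colitis mean was the highest of the 4. The change was 2.28 ± 0.09 in WT (4.84-fold) and 1.44 ± 0.10 in KO (2.71-fold), and KO colitis lay below WT colitis by 0.83 on the log2 scale (difference −0.83 ± 0.05).

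Il18 (chr9:50554827-50581840, plus strand) behaved differently. Its group mean was 7.18 in WT control, 7.15 in KO control, 7.48 in WT colitis and 7.69 in KO colitis, so the gene was abundant throughout and KO colitis had the highest mean. The change was 0.30 ± 0.03 in WT and 0.54 ± 0.03 in KO, or 0.18 and 0.35 beyond the median change of all genes. KO lay above WT by 0.20 ± 0.02 in colitis.

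The antagonists were present at higher read counts than the cytokines they act on in control colon for IL-1, and at lower ones for IL-18. Il1rn (chr2:24336853-24351494, plus strand) encodes the IL-1 receptor antagonist. Means were 6.65 in WT control, 6.47 in KO control, 7.49 in WT colitis and 7.14 in KO colitis, with both KO means below the WT mean of the same condition. The change was 0.84 ± 0.03 in WT (1.79-fold) and 0.67 ± 0.03 in KO (1.60-fold), or 0.71 and 0.48 beyond the median of all genes. Il18bp (chr7:102014885-102018690, minus strand) stood at 2.64 in WT control, 2.95 in KO control, 5.28 in WT colitis and 5.34 in KO colitis. Its change was 2.65 ± 0.11 in WT (6.26-fold) and 2.39 ± 0.10 in KO (5.25-fold), and the colitis means differed by only 0.06 ± 0.05. Il18bp was therefore the gene with a change of at least 1 whose colitis means lay closest in the 2 genotypes.

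A ratio of 2 genes within a group does not depend on the library total. On the log2 scale of RPM, Il1b minus Il1rn was −5.58 in WT control and −4.99 in KO control, and −0.96 in WT colitis and −1.83 in KO colitis. The agonist to antagonist ratio thus moved by 4.62 in WT and by 3.16 in KO. Per kilobase of exon the same log2 ratio was 0.58 in WT colitis and −0.29 in KO colitis, so Il1b lay above Il1rn in WT colitis and below it in KO colitis on that scale. On the RPM scale Il1b lay below Il1rn in every group. The exon length used counts all annotated exon bases of a gene, 1907 for Il1b and 5535 for Il1rn. The order in WT colitis therefore depends on these lengths, and which transcripts were present was not examined. Il18 minus Il18bp fell in both genotypes, from 4.55 to 2.20 in WT and from 4.20 to 2.34 in KO on the log2 RPM scale. These pairs were chosen after the values were seen.

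Among the receptors only Il1rl1 could be examined of the 2 asked for. Il1rl1 (chr1:40429570-40465415, plus strand) encodes ST2, the receptor of IL-33, and a soluble form that traps it, and the gene-level counts do not separate these forms. Group means were 3.29 in WT control, 3.02 in KO control, 5.47 in WT colitis and 4.58 in KO colitis, much like that of its ligand. The change was 2.17 ± 0.09 in WT (4.51-fold) and 1.56 ± 0.10 in KO (2.95-fold), and KO colitis lay below WT colitis by 0.89 (difference −0.89 ± 0.05). Il33 minus Il1rl1 stayed between −0.14 and 0.14 log2 RPM in the 4 groups.

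Casp1 (chr9:5298517-5307265, plus strand) encodes caspase-1. Group means were 7.99 in WT control, 7.98 in KO control, 8.19 in WT colitis and 8.42 in KO colitis. It was abundant in all groups and, like Il18, had its highest mean in KO colitis. The change was 0.20 ± 0.02 in WT and 0.44 ± 0.02 in KO, of which 0.07 and 0.25 were beyond the median of all genes.

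Levels between genes were compared per kilobase of exon, counted over all annotated exons of a gene, so the orders depend on these lengths. In WT control the order was Casp1 (7.41 log2 RPM per kilobase), Il18 (7.14), Il1rn (4.19), Il33 (1.62), Il18bp (1.04), Il1rl1 (0.51), Il1b (0.14) and Il1a (−1.60), with Il1f9 at 0 reads. In WT colitis Il1b had moved to the third place at 5.60, behind Casp1 at 7.61 and Il18 at 7.44 and ahead of Il1rn at 5.02. In KO colitis Il1rn at 4.67 kept the third place and Il1b at 4.38 came next. Which neighbours in these orders differ beyond the spread between mice cannot be said from group means.

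The genotypes were then compared directly. None of the 9 genes was in the deposited table of KO against WT in control, which lists 0.890% of all genes, and none was in that of KO against WT in colitis, which lists 1.08%. In colitis the KO mean was the lower one for 6 of the 9 genes, against 52.6% of all genes, and lower by at least 1 on the log2 scale for 3, Il1a, Il1b and Il1f9, against 2.90% of all genes. The other 3 genes, Il18, Casp1 and Il18bp, were higher in KO colitis by 0.06 to 0.23, and so 0 of the 9 were higher by at least 1, against 1.49% of all genes. The change on colitis was smaller in KO for 7 of the 9 genes, against 52.7% of all genes. The median difference between the genotypes over the 9 genes was −0.01 in control and −0.83 in colitis. The median of the KO change minus the WT change was −0.62, against −0.02 over all genes.

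Genes that rise steeply on colitis had smaller changes in KO also outside the family. Among all 888 genes whose change averaged over both genotypes was at least 1, the KO change was the smaller one for 65.5%, with a median difference of −0.18 between the changes. Of the 9 members 6 are among these 888, all 6 with the smaller change in KO. Both comparisons of colitis use the same KO and WT groups as the comparison of the genotypes, so these values are not independent of one another.

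**Figure D2:**
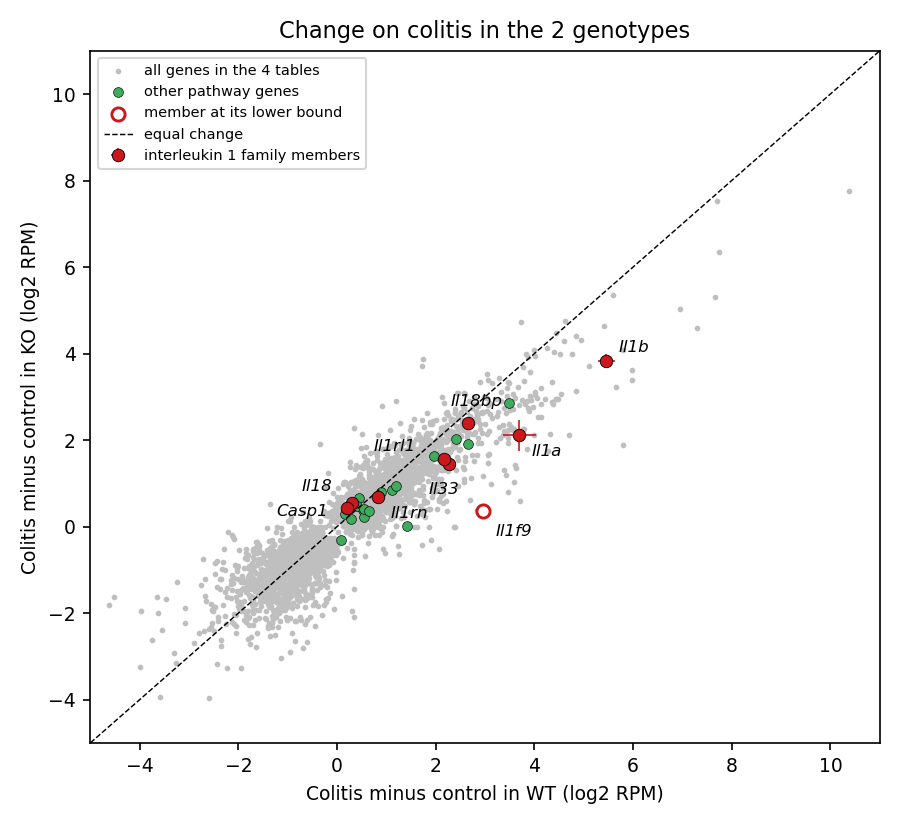
Change on colitis (colitis minus control, log2 RPM) in WT on the horizontal axis and in KO on the vertical axis for 5171 genes (grey), the other receptor, processing and signalling genes (green) and the 9 members (red, bars ± 1 counting standard error), with group means under 3 reads per library raised to 3 reads. Il1b (5.46 and 3.83) and Il1a (3.69 and 2.11) lie below the dashed line of equal change, Il18 and Casp1 lie just above it, and the open circle is the lower bound of Il1f9.

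**Figure D3:**
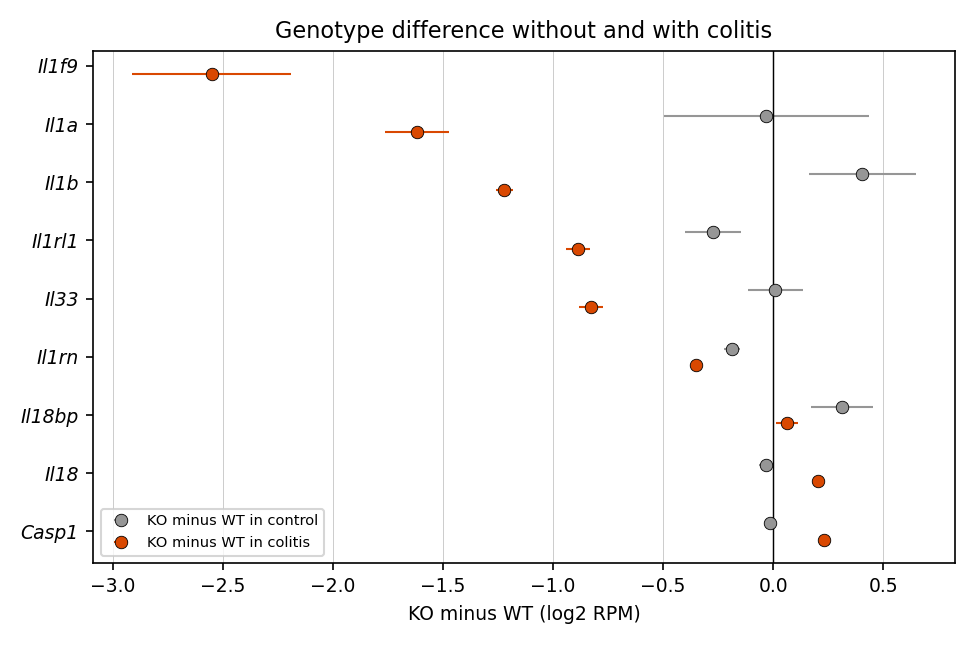
KO minus WT (log2 RPM, horizontal axis, bars ± 1 counting standard error) of the 9 genes in control (grey) and in colitis (orange), with the control value of Il1f9 left out because both means were 0 reads. The control points lie between −0.27 and 0.41, while the colitis points run from −2.55 for Il1f9 to 0.23 for Casp1.

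The other genes of the pathway were taken from lists drawn up by function. Of 10 ligands and antagonists 6 were in the tables, all of them members described above, and Il36a, Il36b, Il36rn and Il1f10 were not analysed here. Of 9 receptors and binding proteins 6 were in the tables. The authors listed 5 as higher in WT colitis, against 36.6% of all genes, and 5 in KO colitis, against 44.8%. They listed 1 as lower in KO colitis, as they did 1740 of all 5171 genes. The median change over these 6 genes was 2.30 for WT and 1.79 for KO. Il1r2, the decoy receptor that binds IL-1 without signalling, had group means of −0.08 in WT control, −0.19 in KO control, 3.41 in WT colitis and 2.66 in KO colitis, a change of 3.49 in WT and 2.85 in KO. The IL-18 receptor chains changed by 1.11 and 0.84 for Il18r1 and by 2.42 and 2.03 for Il18rap in WT and KO. Sigirr, an inhibitory receptor of epithelium, differed by 0.08 in WT and by −0.32 in KO and was the receptor listed as lower. Il1rl1, Il18r1 and Il18rap stand side by side on chromosome 1, with 136 bases between the first 2 and 14507 bases between Il18r1 and Il18rap.

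Of 18 genes of inflammasomes and other cytokine processing 10 were in the tables. Listed as higher were 7 in WT colitis, against 36.6% of all genes, and 9 in KO colitis, against 44.8%. The median over the 10 was a small change, 0.53 (WT) and 0.42 (KO). The exceptions were Nlrp3, the sensor that assembles the best known inflammasome, with a change of 2.65 in WT and 1.90 in KO, Mefv, the gene of the sensor pyrin, with 1.96 and 1.63, and Prtn3, a neutrophil protease able to cut IL-1 cytokines. Prtn3 was under 3 reads per library in both control groups and at least 2.68-fold higher in WT colitis, while its KO colitis mean was also close to 3 reads. The adaptor gene Pycard changed by 0.39 and 0.47, and Gsdmd, whose product forms the pore through which IL-1 beta leaves the cell, by 0.55 and 0.41. Of 22 signalling genes 4 were in the tables, Myd88, Traf6, Rel and Nfkbiz. Listed as higher were 4 in WT colitis and 3 in KO colitis, against the same shares of all genes. Nfkbiz, an inducible partner of nuclear factor kappa B, had the largest change of the 4, 1.20 in WT and 0.93 in KO.

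Genes known to respond to IL-1, although not to IL-1 alone, were taken as a further list. Of its 18 genes 16 were in the tables. Listed as higher were 15 in WT colitis, against 36.6% of all genes, and 12 in KO colitis, against 44.8%. The median was 3.88 for WT and 2.20 for KO with low means raised to 3 reads. In colitis the KO mean was the lower one for all 16 genes in the tables, against the 52.6% of all genes given above. It was lower by at least 1 for 12, against 2.90% of all genes. Both control means of Cxcl2, Cxcl1 and Il6 were under 3 reads per library. Cxcl2, a chemokine that draws neutrophils, was at least 50.0-fold higher on colitis for WT and at least 9.33-fold higher for KO, and like Il1b it was in the KO table only. Cxcl1, of the same kind, was at least 18.6-fold and at least 7.68-fold higher, and the cytokine gene Il6 at least 20.0-fold and at least 4.43-fold higher. Cxcl5 changed by 5.80 in WT and 4.09 in KO, Ccl2, a chemokine of monocytes, by 3.96 and 2.75, and Ptgs2, the inducible cyclooxygenase, by 2.14 and 0.55. The cytokine gene Il11 was under 3 reads per library in WT control and at least 62.7-fold higher in WT colitis, and its means in KO differed by 3.38. The matrix protease gene Mmp3 changed by 4.75 in WT and 3.98 in KO, and Lcn2, whose product withholds iron from bacteria, by 3.80 and 2.26. The adhesion molecule genes Icam1 (2.83-fold in WT and 2.20-fold in KO) and Vcam1 (3.40-fold and 2.94-fold) changed less than these. Tnfaip6, a hyaluronan binding protein, was 1.13 higher on the log2 scale in WT colitis and differed by −0.18 in KO. Sele and Csf3, an adhesion molecule and a neutrophil growth factor, were under 3 reads per library in control and at least 5.87-fold and at least 5.27-fold higher in WT colitis. Nos2, the inducible nitric oxide synthase, changed by 4.44 and 4.48 and was the gene of this list whose KO change was not the smaller one.

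**Figure D4:**
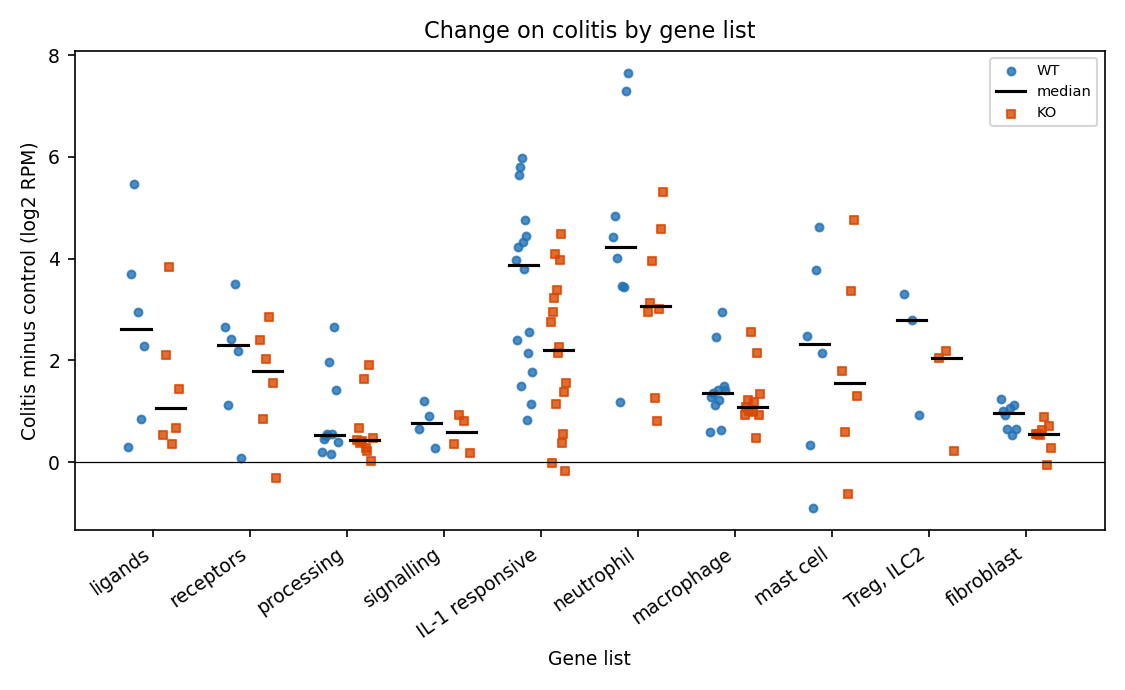
Change on colitis (colitis minus control, log2 RPM, vertical axis) of each gene found in the tables by list, with WT as blue circles, KO as orange squares and the median as a black bar, and with group means under 3 reads per library raised to 3 reads. The median of the genes that respond to IL-1 was 3.88 in WT and 2.20 in KO, while that of the processing genes was 0.53 and 0.42.

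Markers of the cells known to make or answer these cytokines moved as well, and in bulk tissue more cells of a type and more RNA per cell cannot be told apart. Beside Il1b, neutrophil markers (8 of 11 in the tables) summed to 96.2 RPM in WT control, 102 in KO control, 403 in WT colitis and 291 in KO colitis. Ly6g held most of these sums in every group, with 207 RPM in WT colitis and 236 in KO colitis, and lay higher in KO. With Ly6g set apart after the values were seen, the other 7 markers summed to 4.17, 4.19, 196 and 55.0 RPM in the same order. Each of the 7 had the lower colitis mean in KO, but that of Ltf differed little, 4.81 RPM in WT and 4.75 in KO. S100a8 and S100a9 held most of the WT colitis sum, and S100a8 stood at 46.5 RPM there and 7.37 in KO colitis. S100a9, a calprotectin subunit of neutrophils, stood at 82.3 RPM in WT colitis and 12.1 in KO colitis. Cxcr2, a defining neutrophil receptor, was under 3 reads per library in both control groups. Monocyte and macrophage markers (11 of 13) summed to 893, 950, 2187 and 2137 RPM in the same order, so the sums differed little between the genotypes in colitis. Lyz2 held the largest part of the colitis sums, with 982 RPM in WT and 968 in KO. Of the 11 markers 7 had the lower colitis mean in KO, against 52.6% of all genes, and 4 the higher one. Il1b minus Csf3r, a neutrophil receptor gene, was 1.53 in WT colitis and 1.21 in KO colitis on the log2 RPM scale, and Il1b minus Cd14, a monocyte gene, was −0.84 and −1.98. Il1b minus S100a9 went the other way, with 0.17 in WT colitis and 1.71 in KO colitis. These genes were chosen after the values were seen, and the part of either cell type in the difference of Il1b was not tested.

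Beside Il33, fibroblast markers (8 of 9) summed to 2672 RPM in WT control, 2592 in KO control, 5125 in WT colitis and 3802 in KO colitis. Beside Il1rl1, mast cell markers (6 of 9) summed to 186, 184, 120 and 141 RPM. Kit, which is also found in other cells, held most of this sum. The other 5, Cpa3, Mcpt1, Mcpt2, Mcpt4 and Fcer1a, summed to 1.64, 2.43, 22.3 and 24.4 RPM, and all 5 had higher means in colitis in both genotypes. Mcpt1 and Mcpt2 held most of these colitis sums. Mcpt2, Mcpt4 and Fcer1a were under 3 reads per library in both control groups and Cpa3 in WT control. Fcer1a was under 3 reads in WT colitis as well. The 3 of 8 markers of regulatory T cells and type 2 innate lymphoid cells in the tables summed to 8.51, 12.0, 23.4 and 18.6 RPM. Beside Il18 and Casp1, the 2 of 11 colon epithelial markers in the tables, Car1 and Slc26a3, summed to 5582, 5111, 2797 and 2408 RPM, so they were lower in colitis while Il18 and Casp1 were not. Between the genotypes in colitis these markers went opposite ways, with 1925 RPM in WT and 1097 in KO for Car1 and 872 and 1311 for Slc26a3. Beside Il1f9, 2 of 12 markers of stratified squamous epithelium, Krt13 and Sprr1a, summed to 17.1, 16.8, 47.7 and 32.9 RPM. Sprr1a held nearly all of this sum, with 46.5 RPM in WT colitis and 32.1 in KO colitis. Both control means of Krt13 were under 3 reads per library. The part of these cells in the values of the 4 cytokine genes, Il1rl1 and Casp1 was not tested.

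The genes with a pattern most like that of Il1b were sought among 5050 others above 3 reads per library in both colitis groups. Over the 4 group means, each gene centred on its own mean, the nearest were Spp1 (distance 0.29 log2 units), Gml (0.34), Marco (0.39), Cxcl1 (0.44) and Gzmb (0.44). Likeness over 4 group means is a weak measure, and the control means of the first 4 were under 3 reads per library.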

How the data were processed

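RNA of 16 colon samples was sequenced. Per the labels and the study's methods, the authors mapped reads to GRCm38 with HISAT2 (version 2.1.0), removed reads over ribosomal RNA, which contaminated some libraries that are not named, counted reads over exons and ran DESeq2. The labels describe single-end reads and the study's methods paired-end reads. The 4 deposited tables each list the genes past an adjusted p of 0.05 in 1 comparison and carry that adjusted p, which was not used. Their other values are the authors' group means as log2 RPM, read here as log2 values. Removing reads by library and listing genes by a test can both shift which genes and levels are seen.

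Differences of these means were computed with Python 3.11.15, pandas 2.3.3 and NumPy 2.4.6. Library sizes were recovered from the lowest mean of each group, taken as 0 reads in every library with a count of 0 set to 0.9 reads. As a check, all low means then lay on steps of whole reads (relative tolerance 0.0001). The recovery was tested on simulated data that used the same value for a count of 0, so that value was not itself tested there. The floor was 3 reads per library, and counting errors were taken from the reads behind each mean. No test was run, because the deposited tables hold neither counts nor values of single libraries. Values by sample that the study lists in a supplement were not used here. Positions are those of the deposited tables, identical with GENCODE for all 9 genes, and gene IDs are those of GENCODE.

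Named were all members found, genes of the pathway lists with a log2 change on colitis of at least 1 in either genotype or in a table of KO against WT, with a few others of the lists named after their values were seen, and the 5 genes nearest to Il1b. The members and lists were chosen with earlier results of these data known. Alternatives were a pseudocount of 1 RPM, centring on the median of all genes, a fold threshold of 1.5, the mean in place of the median, and a filter at the floor.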

Additional observations from a re-analysis of the deposited data

How the results depend on the processing

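Of 97 alternative values for 39 results, 0 reversed and 86 stayed within tolerance (the 95% counting interval, 0.2 log2 units for medians, 1.5 times for counts). For single genes a reversal was counted only where the main difference was at least 1 in size. Neither a pseudocount nor centring, which shifted values by at most 0.19, could reverse such a difference. Centring shifted the KO minus WT differences by only 0.005 in control and 0.014 in colitis. These shifts are below the tolerance of every gene, so those values stayed the same by construction. Raising means under 3 reads could alter Il1f9 only, so the other genes stayed the same by construction. The change of Il1f9 fell from 4.69 to 2.95 in WT and from 2.09 to 0.35 in KO. This still lay within its wide counting interval. With a pseudocount of 1 RPM the change of Il1b on colitis was 4.91 in WT and 3.43 in KO. The pseudocount also lowered changes of Il1a and Il1f9, whose control means are low, and centring on the median of all genes moved the small changes of Casp1, Il18 and Il1rn. The median KO change minus WT change of −0.62 became −0.80 when the mean was taken instead, −0.43 without Il1f9 and −0.62 with low means raised to 3 reads. The last 2 alternatives were added after seeing the data. At a log2 threshold of 1.5, 6 genes passed in WT and 5 in KO. At the threshold of 1, with only genes whose 4 means were all above 3 reads, 5 passed in WT and 5 in KO. No paired analysis was possible because the deposited tables hold group means only, and for the same reason single replicates were not left out and no difference was tested. Depth limits Il1f9 and Il1a in control.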
